A study of Mus musculus with 12 samples.

Results

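The 45 genes described here act in mitosis, the division of the duplicated chromosomes, and in the building of the spindle that carries it out. They were taken by symbol from a list that runs from the transcription factor Foxm1 through kinases, checkpoint proteins, kinetochore subunits and motors to the proteins of cytokinesis. A gene was measured when at least 1 of its probes was detected, at a detection p-value under 0.05, on at least 2 of 12 arrays. Of the 45 genes, 44 had a probe in the platform annotation and 38 passed that rule, out of 11470 genes measured in all. Of the 38, 24 were represented by a probe detected on all 12 arrays, and 14 by a probe that dropped out on some of them. Those 14 could pass through the days on which they were high, so the counts of calls between days are also given for the 24. Bub1, Cenpe, Kif20a, Nek2, Nuf2 and Racgap1 had 10 annotated probes between them, none detected on any array, and Mki67 had no annotated probe.

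The arrays followed B16, an established mouse melanoma line, through a culture cycle in which the cells gained and lost pigment. All cells grew in DMEM with fetal calf serum. Each of the days 0, 4, 8, 12, 16 and 20 had 2 arrays, called set 1 and set 2, which the design text assigned to successive cycles. Days 4, 8 and 12 carried the label pigmented and days 0, 16 and 20 the label depigmented. According to the protocol, a sparse plating of 100 cells per cm2 gave the cells of days 4, 8 and 12, and a dense replating of 10000 cells per cm2 on day 12 gave those of days 16 and 20. Day 20 was thus the second harvest after dense replating. It shared its pigment label with days 0 and 16 and its plating with day 16. Its day in the cycle and its time since replating cannot be told apart. The density given on the individual arrays went against that protocol: both day 8 arrays were marked with the higher density and both day 16 arrays with the lower. The 2 arrays of day 0 carried different densities, 10000 for set 1 and 100 for set 2, and so did those of day 12. Beyond the naming of cycles, no label says that set 1 and set 2 were grown separately, and p-values therefore measure a spread that may be technical.

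As background, mitotic genes are switched on late in the cell cycle. The MuvB complex with B-Myb and then FOXM1 binds a promoter element called the CHR, often together with a CCAAT box bound by NF-Y, and the DREAM complex represses the same promoters in resting cells. Their products condense the chromosomes, attach them to the spindle through kinetochores, hold division back until all are attached, and then release the sister chromatids through the anaphase promoting complex. High levels of this gene group are a common sign of dividing cells. In a bulk culture, fewer cells in mitosis and less transcript in each of them cannot be told apart.

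Between 18508 and 19780 of 45281 probes were detected on each array, and mean signal ran from 269.9 on a day 20 array to 440.8 on a day 4 array. Across genes, set 1 and set 2 of the same day correlated at 0.995 to 0.997. Arrays of day 4 correlated with those of day 8 in the same range (0.996 to 0.997), and all other pairs of days lay between 0.880 and 0.975. All 7 melanocyte markers (Mitf, Tyr, Pmel, Dct, Mlana, Sox10, Tyrp1) were detected on all 12 arrays. The log2 of their summed signals was 13.8 on both day 20 arrays against 15.1 to 16.2 on the others. Of the markers of other cell types, 2 of 6 for leukocytes, 3 of 5 for fibroblasts, 1 of 4 for keratinocytes and 1 of 4 for endothelium passed the detection rule, while Ptprc, Cd3e, Col1a2, Dcn, Krt5, Krt14, Krt10, Pecam1, Cdh5 and Kdr did not. The log2 of the summed fibroblast markers stood at 7.85 to 7.92 on day 0 and 6.07 to 6.22 on days 4 and 8. It was 6.64 to 6.75 on day 12, 7.39 to 7.47 on day 16 and 6.57 to 6.67 on day 20. Col1a1 was undetected on days 4, 8 and 12, Pdgfra on days 4 and 8, and Pdgfrb on days 4 and 20. A marker undetected on a day adds only background to the sum. The leukocyte sum was lowest on day 20 (5.51 and 5.52) and between 6.18 and 6.996 on all other days. It held only Lyz2 and Fcer1g, both undetected on day 20, so its day 20 value is background. The part of these shifts in the results below was not tested.

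The mitotic genes fell steeply on day 20. The median member differed from day 0 by 0.19 at day 4, by 0.22 at day 8 and by 0.26 at day 12. Day 16 gave 0.07 (-0.02 when arrays were centred on their medians) and day 20 gave -2.73. Over the 6 days, all 38 measured members changed (moderated F test of limma), against 84.7% of all genes. Levels below are normalized log2 signals, on which a step of 1 is a doubling, and changes are differences of day means with the standard error (SE) from limma, n = 2 arrays a day. An offset of 16 added before the log compresses the changes of dim probes. The plot of all members by array shows the break between days 16 and 20 in every role.

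**Figure D1:**
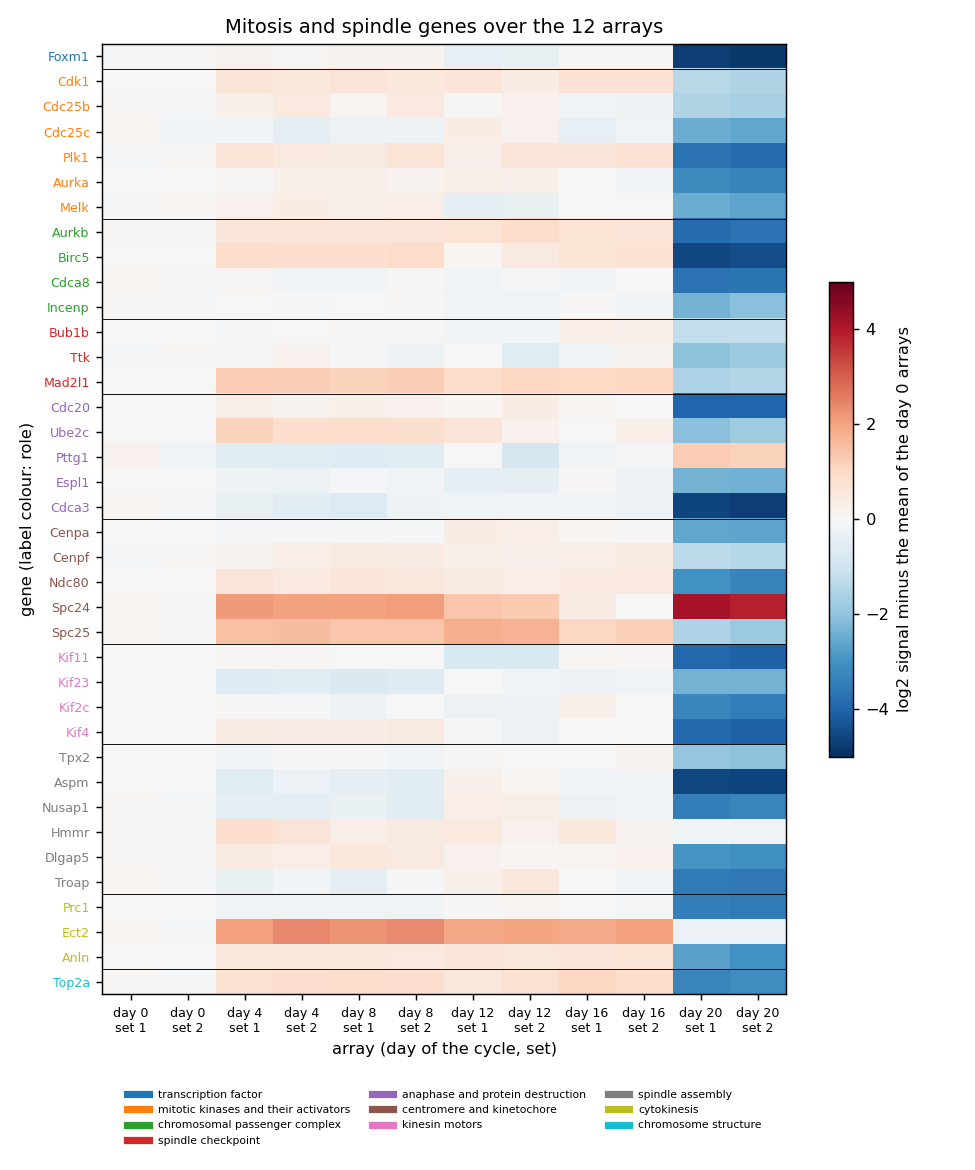
Log2 signal of the 38 measured members on each of the 12 arrays, minus the mean of the day 0 arrays (colour scale), with genes in rows grouped by role and arrays in columns by day and set. The 2 day 20 columns are blue for all members except Spc24 and Pttg1, which are red, and Ect2 and Hmmr, which stand near 0.

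Foxm1, the transcription factor that drives late cell cycle genes, was among the members with the deepest falls. Its level was 9.48 and 9.59 on day 0, 9.72 and 9.61 on day 4, 9.70 and 9.70 on day 8, 9.11 and 9.17 on day 12, 9.58 and 9.59 on day 16, and 4.83 and 4.70 on day 20 (sets 1 and 2). In the deposited signals, before normalization, this was 772.9 and 874 on day 0 against 71.5 and 72.9 on day 20, where the probe was detected on 1 of 2 arrays. Both day 20 arrays lay far below every other array and both day 12 arrays below the remaining ones, while days 0, 4, 8 and 16 lay close together. The change from day 0 to day 20 was -4.77 ± 0.09 (adjusted p = 5.33e-20, limma), and a second Foxm1 probe, detected on all 12 arrays, gave -4.33 ± 0.10. Day 12 was lower than day 0 by a smaller amount (-0.40 ± 0.09, adjusted p = 0.000843), and days 4, 8 and 16 did not pass (0.13, 0.17 and 0.06).

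Against day 0, 34 of the 38 members fell on day 20 and 2 rose, where 38.7% of all genes were called lower and 29.3% higher. The median change of the members was -2.73, or -2.64 with undetected probes set to their bound, and that of all genes was -0.11. By at least 4-fold, 25 members fell, against 3.69% of all genes. Among the 24 members detected on every array, 23 fell and 1 (Spc24) rose, with a median of -3.25. Centring each array on its median in place of quantile normalization moved the median of all genes to -0.30 and the share of called genes that were higher from 43.1% to 27.7%, while the median of the members became -2.99. The lower leukocyte, fibroblast and melanocyte marker sums of day 20 against day 0 accompany this result. On day 20 both measured leukocyte markers and Pdgfrb were undetected.

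Among the mitotic kinases and their activators, 6 of 6 measured genes fell by their brightest probe. Plk1, which acts in spindle assembly and mitotic entry, went from 8.99 and 9.07 on day 0 to 5.35 and 5.17 on day 20 (-3.77 ± 0.12, adjusted p = 5.31e-17). Aurka, the centrosome kinase Aurora A, fell by 3.27 ± 0.09 on the log2 scale. Cdk1, the kinase that triggers mitosis, was at 10.83 and 10.76 on day 0, 11.41 and 11.33 on day 4, 11.45 and 11.34 on day 8, 11.40 and 11.17 on day 12, 11.53 and 11.51 on day 16 and 9.40 and 9.29 on day 20. Both day 20 arrays lay below all others, by a smaller margin than for Foxm1 (-1.45 ± 0.08 against day 0, adjusted p = 7.57e-13). The Cdk1-activating phosphatase gene Cdc25b fell by 1.58 ± 0.15 on the log2 scale, with its probe detected on 1 of 2 day 20 arrays. Cdc25c, which encodes a phosphatase with the same target, was at least 4.50-fold lower (adjusted p = 2.25e-12). It was undetected on day 20, so this fold is a bound, set against the lowest detected signal on those arrays. Melk, a kinase of proliferating cells, fell by its brightest probe (at least 4.44-fold for that probe, undetected on day 20, adjusted p = 5.40e-13), but 1 of its other probes was detected on both day 20 arrays and did not pass (-0.15 ± 0.17).

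The chromosomal passenger complex, which corrects faulty attachments at the centromere and then moves to the central spindle, fell as a whole (4 of 4). Birc5 (survivin) stood at 10.04 and 10.01 on day 0, 10.90 and 10.87 on day 4, 10.85 and 10.96 on day 8, 10.14 and 10.46 on day 12, 10.70 and 10.74 on day 16 and 5.47 and 5.58 on day 20. It was lowest on day 20 and highest on days 4 and 8 (day 20 against day 0 -4.50 ± 0.09, adjusted p = 1.51e-19). The catalytic subunit Aurkb was at 9.98 and 9.89 on day 0, 10.53 and 10.55 on day 4, 10.56 and 10.57 on day 8, 10.62 and 10.81 on day 12, 10.64 and 10.60 on day 16 and 6.08 and 6.22 on day 20. Its day 20 arrays lay below all others and its day 0 arrays below those of days 4 to 16 (day 20 against day 0 -3.78 ± 0.08, adjusted p = 2.98e-19). Cdca8, which encodes the targeting subunit borealin, went from 10.09 and 9.91 to 6.29 and 6.33 (-3.69 ± 0.10). The scaffold gene Incenp fell less, by 2.22 ± 0.10 on the log2 scale. Cdca8 and Incenp too were lowest on both arrays of day 20.

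All 3 measured spindle checkpoint genes fell on day 20, by smaller amounts. Bub1b, whose product BubR1 is part of the inhibitor of the anaphase promoting complex, was at 10.52 and 10.56 on day 0, 10.43 and 10.50 on day 4, 10.62 and 10.59 on day 8, 10.39 and 10.41 on day 12, 10.85 and 10.81 on day 16 and 9.32 and 9.34 on day 20. Day 16 was its highest day and day 20 its lowest, with no overlap between them and the rest (-1.21 ± 0.07 on day 20, adjusted p = 1.57e-12). Mad2l1, which encodes Mad2 of the same inhibitor, changed by -1.50 ± 0.08. Ttk, the checkpoint kinase MPS1, was at least 3.23-fold lower (adjusted p = 5.32e-09), undetected on day 20.

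Of the 5 genes of anaphase and mitotic protein destruction, 4 fell and 1 rose. Cdca3, a regulator of mitotic entry, was at 10.84 and 10.65 on day 0, 10.36 and 10.24 on day 4, 10.07 and 10.48 on day 8, 10.54 and 10.60 on day 12, 10.59 and 10.46 on day 16 and 6.16 and 6.04 on day 20. Apart from day 20 its arrays kept within 10.07 and 10.84, and day 20 lay far below them (-4.65 ± 0.11, adjusted p = 5.63e-19). Cdc20, the activator of the anaphase promoting complex, fell by 3.96 ± 0.09 and Espl1, which encodes the cohesin-cleaving protease separase, by 2.39 ± 0.12 on the log2 scale. Ube2c, the ubiquitin-conjugating enzyme of that complex, was at least 3.05-fold lower (adjusted p = 5.53e-10). Pttg1, which encodes securin, the inhibitor of separase, went the other way. Its levels were 5.75 and 5.29 on day 0, 4.96 and 4.93 on day 4, 4.89 and 4.90 on day 8, 5.49 and 4.69 on day 12, 5.34 and 5.43 on day 16, and 6.81 and 6.65 on day 20. Only day 20 stood clearly apart upward, and the sets of day 12 differed by 0.80, the widest gap between sets of any member. The rise was 1.21 ± 0.21 (adjusted p = 2.31e-05), from a dim probe, the only 1 of the gene.

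At the centromere and kinetochore 4 of 5 measured genes fell on day 20. Cenpa, the histone variant that marks the centromere, was among the brightest members, at 12.58 and 12.56 on day 0, 12.53 and 12.51 on day 4, 12.51 and 12.51 on day 8, 12.93 and 12.91 on day 12, 12.68 and 12.61 on day 16 and 9.99 and 9.95 on day 20. It peaked on day 12 and was lowest on day 20 (-2.60 ± 0.06 against day 0, adjusted p = 1.40e-18). Ndc80, the microtubule-binding subunit of the complex that bears its name, fell by 3.20 ± 0.11, its partner Spc25 by 1.69 ± 0.09 and Cenpf by 1.35 ± 0.14 on the log2 scale. For Ndc80 and Cenpf the probe was detected on 1 of 2 day 20 arrays. Spc24, whose protein pairs with Spc25, rose on day 20 by its brighter probe and is described with its probes below.

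The kinesin motors fell in 4 of 4 measured cases. Kif23, the motor of the central spindle, was at 12.01 and 12.06 on day 0, 11.40 and 11.47 on day 4, 11.29 and 11.41 on day 8, 12.03 and 11.91 on day 12, 11.74 and 11.90 on day 16 and 9.66 and 9.66 on day 20. It dipped on days 4 and 8, did not pass against day 0 on day 12 and was lowest on day 20 (-2.38 ± 0.07 against day 0, adjusted p = 7.35e-17). Of its other detected probes, 1 of the same transcript gave -2.94 ± 0.09, and those annotated to cDNA clones moved less (-0.46 ± 0.10) or did not pass (-0.08 ± 0.16). Kif4, a chromosome-bound motor, fell by 3.96 ± 0.10 and Kif2c, a microtubule depolymerase, by 3.345 ± 0.11 on the log2 scale. Kif11, the motor that pushes spindle poles apart, was at 8.55 and 8.53 on day 0, 8.60 and 8.61 on day 4, 8.51 and 8.56 on day 8, 7.78 and 7.79 on day 12, 8.61 and 8.61 on day 16 and 4.60 and 4.49 on day 20. It dipped on day 12 and was undetected on day 20, at least 12.9-fold below day 0 (adjusted p = 2.76e-18).

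Of 6 spindle assembly genes, 5 fell. Aspm, a spindle pole gene, was at 9.03 and 9.02 on day 0 and undetected on day 20, at least 18.0-fold lower (adjusted p = 8.66e-19). Nusap1, which bundles microtubules, was at 11.38 and 11.28 on day 0, 10.83 and 10.85 on day 4, 11.01 and 10.81 on day 8, 11.64 and 11.62 on day 12, 11.04 and 11.16 on day 16 and 7.88 and 8.04 on day 20. Day 12 was its highest day and day 20 its lowest (-3.37 ± 0.08 against day 0, adjusted p = 1.17e-18). Troap changed by -3.55 ± 0.13 (-0.36 ± 0.15 by a probe annotated to a cDNA clone), Tpx2, an activator of Aurora A, by -1.99 ± 0.09, and Dlgap5 was at least 6.37-fold lower (adjusted p = 3.70e-15). Hmmr was detected on 6 arrays, none of them of day 0 or day 20, and gives no comparison between those days.

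Of the cytokinesis and chromosome genes, Prc1, which crosslinks the central spindle, was at 12.18 and 12.16 on day 0, 12.01 and 12.02 on day 4, 11.98 and 11.96 on day 8, 12.21 and 12.31 on day 12, 12.14 and 12.10 on day 16 and 8.74 and 8.67 on day 20. Before day 20 its arrays spanned only 11.96 to 12.31, and day 20 lay far below (-3.47 ± 0.07, adjusted p = 5.46e-20). Anln, which encodes the ring protein anillin, fell by 2.87 ± 0.08 on the log2 scale. Top2a, which untangles sister chromatids, was at 9.71 and 9.56 on day 0, 10.41 and 10.46 on day 4, 10.53 and 10.48 on day 8, 10.22 and 10.38 on day 12, 10.68 and 10.52 on day 16 and 6.32 and 6.51 on day 20. Days 4 to 16 were above day 0 on both arrays and day 20 below it (-3.22 ± 0.09, adjusted p = 1.25e-17). Ect2, the exchange factor that activates RhoA for furrowing, was undetected on both day 0 and day 20.

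**Figure D2:**
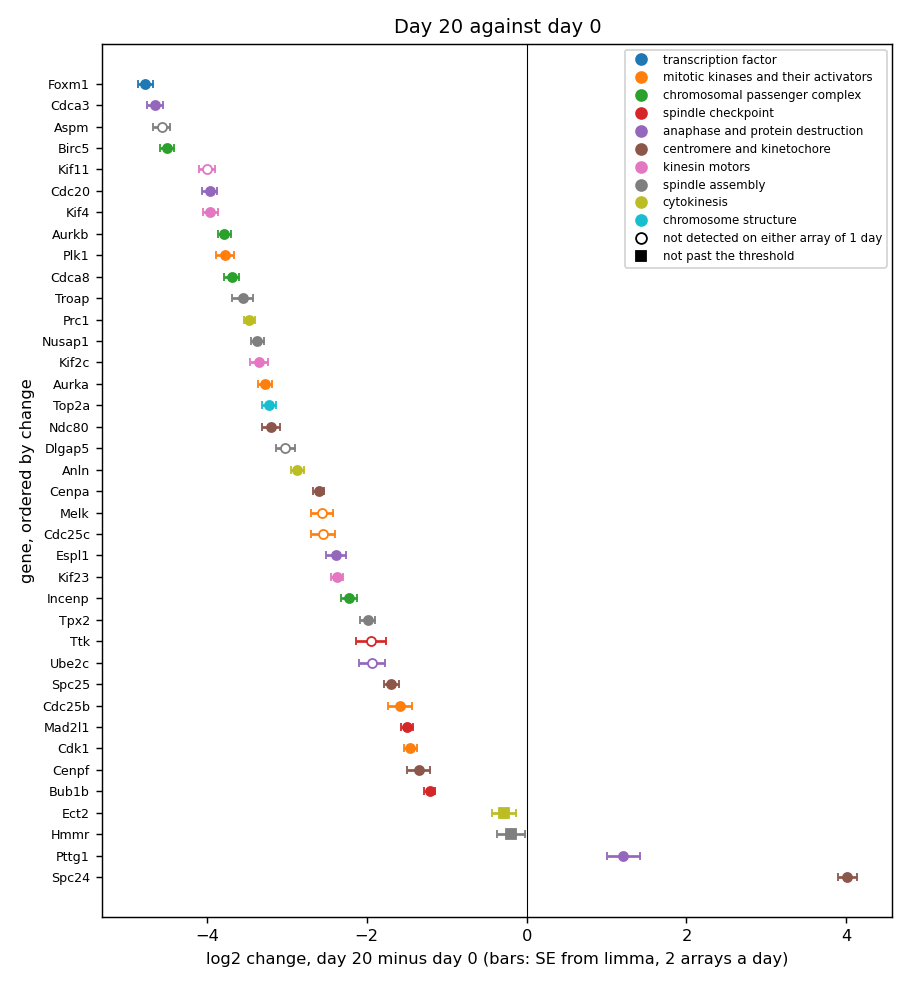
Change of each measured member from day 0 to day 20 (horizontal axis, log2, with SE bars from limma, 2 arrays a day), ordered by size and coloured by role; open symbols mark genes whose brightest probe was not detected on either array of 1 of the days, squares the 2 genes not past the threshold. Values run from -4.77 for Foxm1 to 4.01 for the brighter probe of Spc24.

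The promoters of the members were examined because so many of them fell together. RefSeq windows (GRCm38.p6) of 250 bases before to 50 after the annotated start were listed for 37 of the 45 genes, in 39 windows. CHR letters, TTTGAA or TTCGAA on either strand, lay in 30 of 39 windows (76.9%), against 19.2% of all 32851 windows. The letters CCAAT on either strand lay in 30 windows (76.9%, all windows 37.4%), and both motifs in 27 (69.2%, all windows 7.52%). A CCAAT that began 25 to 40 bases before CHR letters, a spacing chosen after the sequences were seen, was present in 14 windows (35.9%, all windows 0.706%). Overlapping windows of the same gene hold some sites more than once: the CHR matches came from 36 distinct sites, of which 27 began within 50 bases of an annotated start. E2F letters (TTTCCCGC, TTTGGCGC or TTCCCGCC, of which the first and last overlap) lay in 0 windows and forkhead letters (TGTTTAC or TGTTTAT) in 3 (7.69%), against 3.21% and 7.97% of all windows. These are letter matches only.

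The 120 bases before the start are shown for the 6 measured genes with 1 window that held both motifs there. Pttg1, chosen because it rose on day 20, is shown with them. All 6 fell on day 20, as did 34 of the 38 measured members. Members that fell and held neither motif are not shown. Capitals mark CHR letters and CCAAT on either strand, where CCAAT of the other strand reads ATTGG. The windows lie at chr4:118437344-118437463 (minus strand) for Cdc20, chr10:69352913-69353032 (minus) for Cdk1, chr15:102296173-102296292 (plus) for Espl1, chr19:37376262-37376381 (plus) for Kif11, chr11:99024190-99024309 (minus) for Top2a, chr2:164769809-164769928 (plus) for Ube2c and chr11:43425982-43426101 (minus) for Pttg1.
Cdc20: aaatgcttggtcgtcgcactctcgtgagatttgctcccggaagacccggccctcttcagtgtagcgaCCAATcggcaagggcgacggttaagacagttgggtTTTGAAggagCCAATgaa
Cdk1: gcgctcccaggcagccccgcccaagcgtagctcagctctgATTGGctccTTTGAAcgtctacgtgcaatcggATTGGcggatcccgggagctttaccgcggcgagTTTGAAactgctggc
Espl1: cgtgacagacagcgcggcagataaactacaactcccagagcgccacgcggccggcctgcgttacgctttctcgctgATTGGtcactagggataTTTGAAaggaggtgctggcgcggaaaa
Kif11: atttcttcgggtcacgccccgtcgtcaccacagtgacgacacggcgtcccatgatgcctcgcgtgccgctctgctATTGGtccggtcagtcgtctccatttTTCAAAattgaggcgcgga
Top2a: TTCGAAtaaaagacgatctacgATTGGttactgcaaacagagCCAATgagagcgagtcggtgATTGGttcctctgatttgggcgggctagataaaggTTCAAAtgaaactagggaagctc
Ube2c: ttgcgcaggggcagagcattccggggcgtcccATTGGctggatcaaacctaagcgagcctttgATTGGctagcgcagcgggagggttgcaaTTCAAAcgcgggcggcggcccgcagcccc
Pttg1: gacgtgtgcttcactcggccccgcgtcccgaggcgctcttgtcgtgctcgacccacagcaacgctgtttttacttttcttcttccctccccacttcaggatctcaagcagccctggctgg
In Cdc20 and Top2a the nearest CCAAT on the 5′ side began 35 bases before CHR letters, in Ube2c 28, in Kif11 26 and in Espl1 17. Cdk1 held 2 CHR matches, with the nearest CCAAT 9 bases before the distal one and 33 before the one closer to the start. The Pttg1 bases shown hold neither motif, and in the full windows the same was true of Birc5, Mad2l1, Melk, Nuf2 and Nusap1. Of these, Birc5, Mad2l1 and Nusap1 fell on day 20, and Melk fell by its brightest probe but not by another. Nuf2 was not detected on enough arrays to be tested.

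Almost all of the decline took place between days 16 and 20. From day 16 to day 20, 36 members fell and 2 rose, against 35% of all genes lower and 29.9% higher, with a median of -2.98 (-2.83 with bounds; all genes -0.05). The fitted fall was at least 4-fold in 31 members, against 3.25% of all genes, among them Cdc25c, Ect2 and Ube2c, whose bound was under 4-fold. Hmmr, also among the 36, was undetected on day 20 and had a bound of only 1.00-fold. Of the 24 members detected on every array 23 fell and 1 rose. With median centring the share of called genes that were higher went from 46.1% to 31.9% and the median of the members to -3.06. Birc5 had the largest estimated change, from 10.70 and 10.74 on day 16 to 5.47 and 5.58 on day 20 (-5.20 ± 0.09, adjusted p = 9.39e-21). Mad2l1 (-2.51 ± 0.08) and Cdk1 (-2.18 ± 0.08) fell too, although another detected Cdk1 probe rose (0.45). Ect2 was at least 3.48-fold lower (adjusted p = 2.63e-11, limma) by its brightest probe, annotated to a cDNA clone.

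The same interval after sparse plating looked different. Days 4 and 8 were also the first and second harvest after a plating, and from day 4 to day 8 limma called 0 of 38 members and 0 of 11470 genes (0%), with 0 and 307 at an unadjusted p under 0.05. The members' median change was -0.00144, with values between -0.34 and 0.17. Arrays of days 4 and 8 correlated as closely as the 2 arrays of a day (0.996 to 0.997 against 0.995 to 0.997). A contrast with this interval therefore largely repeats the change from day 16 to day 20. The difference between the intervals, day 20 minus day 16 against day 8 minus day 4, was lower for 35 members and higher for 2 (all genes 30.3% and 25.6%), with Foxm1 at -4.86 ± 0.13 (adjusted p = 1.73e-17). For the 24 members detected on all arrays it was lower for 23 and higher for 1. Of the calls in all genes 45.8% were higher, and 29.4% with median centring.

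**Figure D3:**
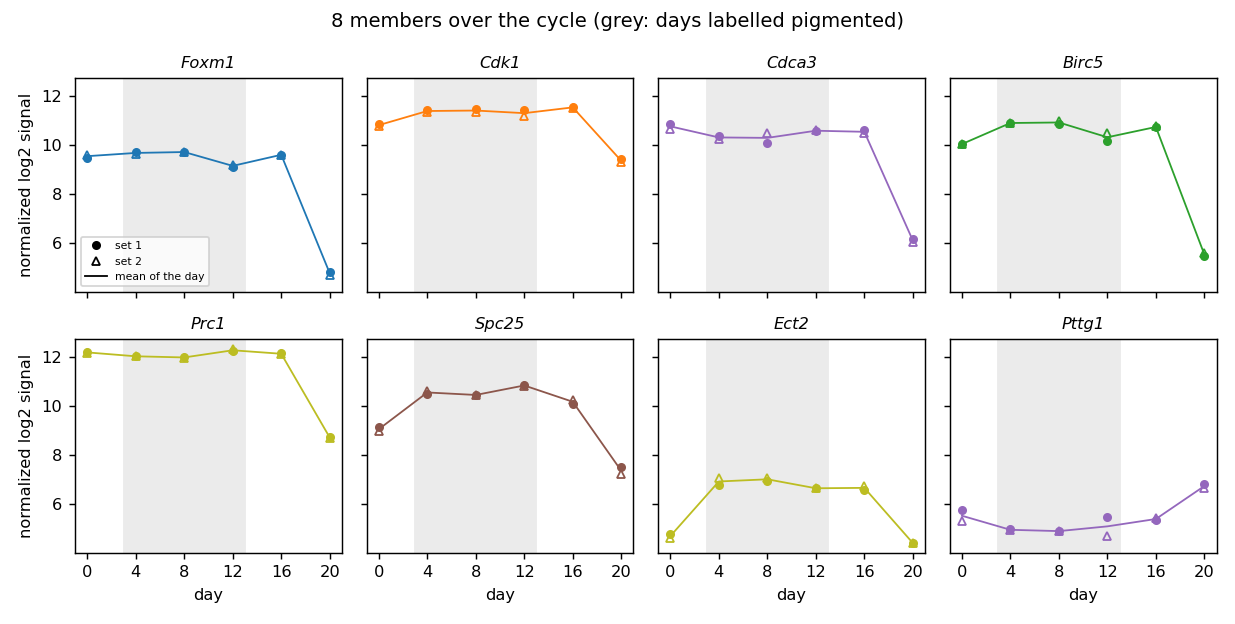
Normalized log2 signal (vertical axis) of 8 members against day (horizontal axis), with filled circles for set 1, open triangles for set 2 and lines through the day means; grey marks the days labelled pigmented. Foxm1, Cdk1, Cdca3, Birc5, Prc1 and Spc25 are lowest on day 20, Ect2 is low on days 0 and 20, and Pttg1 is highest on day 20.

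On the pigmented days the members split. On day 8, 17 rose and 6 fell against day 0 (all genes 29.3% higher and 33.9% lower), with a median of 0.22 (0.19 with bounds; all genes -0.04). Day 4 gave the same counts, 17 and 6 (all genes 29.5% and 34%). The 24 members detected on all arrays had 12 higher and 4 lower on day 8, and 11 and 4 on day 4. The number of falling members was 2 on day 4 and 3 on day 8 when arrays were centred on their medians.

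The largest rises on day 8 were those of Ect2, Spc24 and Spc25. Ect2 read 4.79 and 4.59 on day 0, 6.75 and 7.08 on day 4, 6.94 and 7.07 on day 8, 6.63 and 6.64 on day 12, 6.58 and 6.73 on day 16 and 4.40 and 4.41 on day 20. The middle 4 days were high and did not overlap with days 0 and 20. Day 8 was at least 4.35-fold above day 0 (adjusted p = 2.10e-11) by this probe, annotated to a cDNA clone, while a second probe, detected on 4 arrays, gave 0.40 ± 0.20 and did not pass.

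Spc25 rose from 9.13 and 8.96 on day 0 to 10.45 and 10.43 on day 8 (1.39 ± 0.09, adjusted p = 3.10e-11) and was highest on day 12 (10.86 and 10.79). Mad2l1 rose by 1.20 ± 0.08, Birc5 by 0.88 ± 0.09, Top2a by 0.87 ± 0.09, Aurkb by 0.63 ± 0.08, Cdk1 by 0.60 ± 0.08 and Ndc80 by 0.59 ± 0.11. Each of these 6, all called higher, was higher on both arrays of day 8 than on both of day 0. The share of all genes separated in this way was not computed. Ube2c (0.84 ± 0.16), Plk1 (0.58 ± 0.12), Anln (0.50 ± 0.08) and Dlgap5 (0.49 ± 0.12) rose as well.

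The 6 members that fell on day 8 were Kif23, Pttg1, Aspm, Cdca3, Nusap1 and Prc1. Kif23 was at 11.29 and 11.41 on day 8 against 12.01 and 12.06 on day 0 (-0.68 ± 0.07, adjusted p = 5.47e-08). Aspm changed by -0.51 ± 0.11, Nusap1 by -0.42 ± 0.08 and Prc1 by -0.21 ± 0.07, the last of which did not pass with median centring (-0.01) or without 1 array (-0.20 without set 1 of day 0, -0.19 without set 2 of day 8). Pttg1 changed by -0.63 ± 0.21, a call lost without set 1 of day 0 (-0.40). Cdca3 changed by -0.47 ± 0.11, but its second probe rose by 0.59 ± 0.11, so the gene had no settled direction on days 4 and 8, nor from day 8 to day 12. Nusap1 and Cdca3 stood at 0.05 and 0.06 and did not pass when the detected probes of a gene were averaged.

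Day 12 was the last harvest before replating. Against day 8, 9 members rose and 12 fell, with all genes at 27.2% and 26.2%, and the 24 members detected on all arrays had 7 and 6. Nusap1 rose from 11.01 and 10.81 to 11.64 and 11.62 (0.72 ± 0.08, adjusted p = 1.81e-07), Aspm by 0.70 ± 0.11, Troap by 0.68 ± 0.13, Kif23 by 0.62 ± 0.07, Cdc25c by 0.59 ± 0.15, Cenpa by 0.41 ± 0.06, Spc25 by 0.39 ± 0.09, Prc1 by 0.29 ± 0.07 and Cdca3 by 0.29 ± 0.11. Other detected probes went the opposite way for Troap (-1.04 ± 0.15) and Cdca3 (-0.64 ± 0.11). Kif11 went down from 8.51 and 8.56 to 7.78 and 7.79 (-0.75 ± 0.10, adjusted p = 2.48e-06). Melk (-0.71 ± 0.14), Birc5 (-0.60 ± 0.09), Kif4 (-0.59 ± 0.10) and Foxm1 (-0.56 ± 0.09) also fell. With median centring 4 members rose, with the share of called genes that were higher at 38.2% in place of 51%, and without set 1 of day 8 there were 7 that fell.

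Against day 0, day 12 had 17 members higher and 4 lower (all genes 22.8% and 29.5%), with a median of 0.26 (all genes -0.06). Among the 24 detected on all arrays 14 were higher and 1 lower. The falling members were Kif11 (-0.76 ± 0.10), Espl1 (-0.44 ± 0.12), Melk (-0.42 ± 0.14) and Foxm1 (-0.40 ± 0.09), and another Melk probe rose by 1.50 ± 0.17. Spc25 led the rises among members detected on every array (1.78 ± 0.09, adjusted p = 2.03e-12), and Aurkb rose by 0.78 ± 0.08. The count of higher members was 8 with median centring and 11 without set 2 of day 0. The calls of Cenpa (0.23), Nusap1 (0.17) and Birc5 (0.14) were lost with median centring.

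On day 16, 4 days after replating, fewer members passed against day 0 than on days 4, 8 and 12. Fewer of all genes passed too, 5455 on day 16 against 7285, 7241 and 6000 on days 4, 8 and 12. Of the 38, 12 rose, 2 fell and 24 did not pass (all genes 20.9% higher and 26.6% lower; median 0.07, all genes -0.05). Of the 24 members detected on all arrays, 9 rose and 2 fell. Cdk1 (0.72 ± 0.08), Top2a (0.96 ± 0.09), Mad2l1 (1.02 ± 0.08) and Spc25 (1.12 ± 0.09) were above day 0, and Ect2 was at least 3.41-fold higher. Nusap1 (-0.23 ± 0.08) and Kif23 (-0.21 ± 0.07) fell, but a second Nusap1 probe rose (0.64). This count of 2 became 0 with median centring and between 0 and 3 when single arrays of day 0 or day 16 were left out.

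From day 12 to day 16, 9 members rose and 8 fell (all genes 20.7% and 19.7%), and 6 and 6 of the 24 detected on all arrays. Kif11 rose from 7.78 and 7.79 to 8.61 and 8.61 (0.83 ± 0.10, adjusted p = 1.47e-06), with Foxm1 at 0.45 ± 0.09 and Bub1b at 0.43 ± 0.07. Spc25 (-0.66 ± 0.09), Nusap1 (-0.53 ± 0.08) and Troap (-0.45 ± 0.13) fell. With median centring, 3 members rose and 5 fell, and without set 1 of day 16 there were 4 that rose.

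The probes of Spc24 disagreed on day 20. Its brighter probe read 7.65 and 7.43 on day 0, 9.69 and 9.55 on day 4, 9.56 and 9.61 on day 8, 8.92 and 8.84 on day 12, 7.92 and 7.52 on day 16, and 11.68 and 11.42 on day 20. Day 20 was thus the highest day on both arrays (4.01 ± 0.12 over day 0, adjusted p = 2.02e-17). The second probe, annotated to the same transcript, read 6.33 and 6.23 on day 0 and 4.62 and 4.98 on day 20, the lowest day, and fell by 1.48 ± 0.18 on the log2 scale (adjusted p = 2.41e-07, limma over all detected probes). On day 4 both probes rose (2.08 ± 0.12 and 0.82 ± 0.18). The direction of Spc24 on day 20 is therefore not settled by these arrays, and the cause of the disagreement was not tested.

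Of the 23 members with more than 1 detected probe, Spc24 was the only 1 with calls in opposite directions between days 0 and 20. Between days 16 and 20 Cdk1 also had such calls, through a probe detected on 5 arrays. Melk probes differed at day 0, where 1 of the 3 read 4.999 and 5.40 and the others 6.84 to 7.17. That probe rose on day 8 by 2.01 ± 0.17 and did not pass on day 20 (-0.15 ± 0.17), whereas the others fell on day 20. Both Spc25 probes followed the same course.

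**Figure D4:**
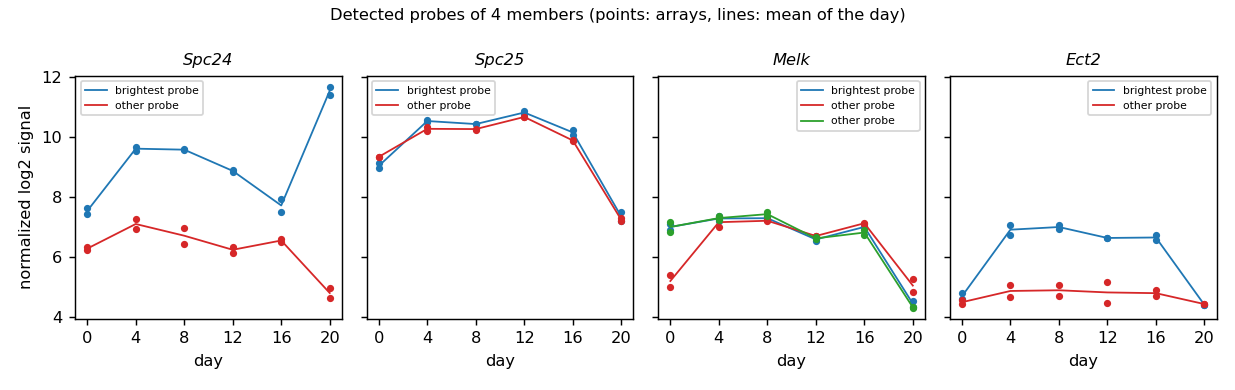
Normalized log2 signal (vertical axis) of the detected probes of Spc24, Spc25, Melk and Ect2 against day (horizontal axis), with points for arrays and lines for day means; blue is the brightest probe. On day 20 the Spc24 probes part (11.68 and 11.42 against 4.62 and 4.98), while those of Spc25 stay together.

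Other genes of division moved with the members on day 20. Of 48 measured mitotic genes outside the members 36 fell and 2 rose (median -1.54, or -1.48 with bounds), led by Cdkn3, a phosphatase of CDK1 and CDK2 (-4.97 ± 0.13), while Zw10, a kinetochore protein also used in membrane traffic, rose by 1.11 ± 0.09. Among 22 further kinetochore subunits 20 were lower and 1 higher (median -1.52), with Mis18a, which is needed to load CENP-A, at -3.49 ± 0.07 and Cenpx at 0.62 ± 0.20. The 19 condensin and cohesin genes had 15 lower and 2 higher (median -1.31). Ncaph, a condensin subunit, was at -4.47 ± 0.10 and Esco1, a cohesin acetyltransferase, at least 2.34-fold higher.

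Unlike the activator gene Cdc20, which fell, the list of the anaphase promoting complex had genes on both sides, with 9 of 14 lower and 4 higher (median -0.43). This list named the core subunits together with another activator gene, Fzr1, and the enzyme gene Ube2s. Anapc13 stood at -2.73 ± 0.08 and Cdc27 at 2.47 ± 0.13. Among the E2F, DREAM and MuvB factors 11 of 20 fell and 3 rose (median -0.39), with E2f2 at least 9.69-fold lower by its brightest probe (another of its probes was detected on day 20) and Nfya, a subunit of NF-Y, at 1.43 ± 0.16. Of 6 CDK inhibitors, 4 were lower and 2 higher, with Cdkn2d at -1.28 ± 0.12 and Cdkn1b (p27) at 0.55 ± 0.14. Shares of all genes on day 20 are those given above.

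DNA replication genes shared the fall of day 20 (33 of 38 lower, 3 higher, median -1.87, or -1.74 with bounds), with Mcm5 of the replicative helicase at -4.15 ± 0.08 and the kinase gene Cdc7 at 0.51 ± 0.09. On the other days their counts ran differently from those of the mitotic members. On day 8, 32 of 38 rose and 0 fell against day 0 (median 0.84), led by Cdc6 (1.87 ± 0.11). Of all genes, 29.3% were higher and 33.9% lower there. From day 8 to day 12, 36 of 38 fell and 0 rose (median -0.73), led by Gins1 (-1.67 ± 0.12). The 38 mitotic members had 9 higher and 12 lower, near the shares of all genes (27.2% higher and 26.2% lower). From day 12 to day 16, 32 rose and 1 fell (all genes 20.7% higher and 19.7% lower). The difference between the lists was not tested.

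**Figure D5:**
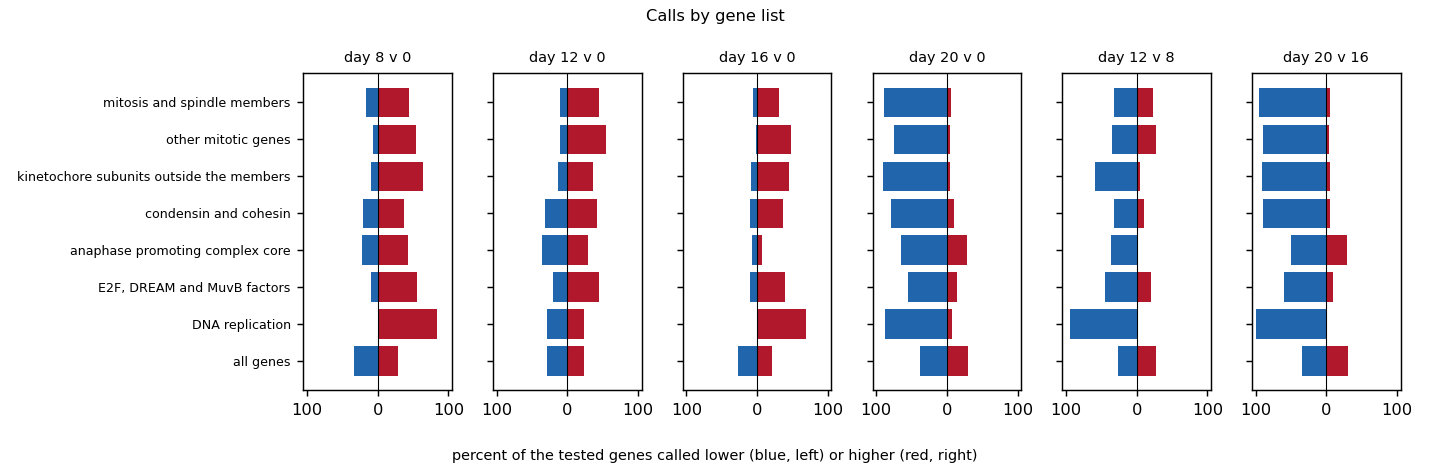
Percent of the measured genes of each list called higher (red, to the right) or lower (blue, to the left) in 6 comparisons of days, with all genes at the bottom. On day 20 the mitotic members, the other mitotic genes and the replication genes extend mostly to the left, and from day 8 to day 12 the replication genes do so while the members extend to both sides.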

How the data were processed

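RNA of 12 samples was hybridised to Illumina mouse bead arrays. Per the file headers, the deposited values were, for every probe and array, a bead-averaged intensity on a linear scale and a detection p-value. The authors' value table held intensity values that were a straight-line transform of 1 signal column each, as found from the values, with set numbers exchanged for days 4, 12 and 20. Its column medians, 6.26 to 8.71, reflect that scaling, and its software is not given in the sources used here. Signals were background corrected and quantile normalized with neqc (limma 3.58.1, R 4.3.3) from the detection p-values, with an offset of 16. Each gene took its detected probe with the highest mean. Days were compared with limma (lmFit, eBayes with an intensity trend, day as a factor over 12 arrays) over 11470 genes with Benjamini-Hochberg adjustment at 0.05, two-sided and tested on simulated data. Where no array of 1 day detected that probe, its change is a bound: the mean of the detected day over the higher, per array, of the lowest detected value and its own. The number of arrays limits the precision.

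The members and lists were chosen with earlier results of these data known. Values were given in full for Foxm1, for the brightest measured gene of each role, for the largest changes and for genes that went against most others, and elsewhere for the top gene of a list in each direction. Of the probes, 34885 had 1 annotated symbol, 18 had several and 10378 had none. Alternatives were background, normalization, filter, probe choice, trend, set block, value table, density label and leaving out each array.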

Additional observations from a re-analysis of the deposited data

Results flagged for a closer look

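For most members, the change over the second 4-day interval after plating was called different between the dense replating and the sparse plating. As 0 of 11470 genes were called from day 4 to day 8, this contrast largely repeats the change from day 16 to day 20. The change from day 16 to day 20 minus the change from day 4 to day 8 was called lower for 35 members and higher for 2 (limma, adjusted over all genes). The median change of the 38 members was -2.98 in the dense interval and -0.00144 in the sparse one. The intervals also differ in pigment label and in days since the start of the cycle, which cannot be told apart from protocol density. The density given on the arrays went the same way in both intervals. It was 100 cells per cm2 on days 4 and 16 and 10000 on days 8 and 20. Arrays of days 4 and 8 correlated as closely as the 2 arrays of a day. The 2 higher members were Spc24, by the probe that disagrees with its other probe, and Pttg1.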

How the results depend on the processing

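The count of 34 members lower on day 20 than on day 0 was 34 without any 1 array, and with the set as a replicate block it was 34 too, as the 2 higher ones stayed 2. No count of members moved by over 1.5 times under the block, with the set numbers of either table. Set differences correlated above 0.1 in 8 of 15 pairs of days (-0.03 to 0.27), and in 2 (-0.27 to 0.11) by the value table's numbers. Which numbers are right is not known, and the main fit did not include the set. With the set as a block, 7958 of all genes were called on day 20 against day 0, in place of 7797. With median centring, lower members numbered 2 (day 4 against day 0), 3 (day 8 against day 0), 0 (day 16 against day 0) and 5 (day 16 against day 12), and higher members 8 (day 12 against day 0), 4 (day 12 against day 8) and 3 (day 16 against day 12). The 2 members lower on day 16 than on day 0 became 1 with the mean of probes or the authors' value table, and 0 without the intensity trend or with the density label as a term. Among genes detected on all 12 arrays 1 member was higher on day 20, against day 0, against day 16 and between the intervals. Without 1 array, higher members numbered 11 to 17 (day 12 against day 0) and 4 to 9 (day 16 against day 12), and lower members 0 to 3 (day 16 against day 0) and 7 to 12 (day 12 against day 8). With the mean of probes Cdca8 stood at 0.305 on day 8 and 0.326 on day 12 against day 0, both called, and Cdca3 (0.0588) and Nusap1 (0.0528) on day 8 lost their negative sign. The other Spc24 probe gave -1.48 on day 20. For single genes, 1270 values kept direction and side of the threshold, 15 newly passed, 16 no longer passed and 5 changed sign. The cause was not tested. Precision is limited by 2 arrays a day and, for dim probes, by signal near background.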
